A study of Homo sapiens with 18 samples.

Results

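The response of BxPC3 cells to THZ1 was measured in 6 of the 18 libraries of the series: 3 of cells given 100 nM THZ1 for 6 h and 3 of cells given the vehicle DMSO for 6 h. The libraries were taken by their cell line label, and every gene symbol of their count files was used. BxPC3 is an established human pancreatic ductal adenocarcinoma line, and the cells were otherwise untreated per the labels. THZ1 is a covalent inhibitor of CDK7 that also binds CDK12 and CDK13. The other 12 libraries are of the pancreatic cancer lines Panc327 and SUIT2 under the same 2 treatments, and they serve below for the spread and for a test of where BxPC3 differed. The labels name SIRT6, a chromatin deacylase, only in the series title, and no SIRT6 manipulation separates these groups. Whether replicates are separate cultures is not in the labels, so the p-values rest on the spread among these samples, which may be technical.

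With THZ1, the immediate early genes FOS, JUNB, IER2 and IER3 rose, as did POLR2A and CCNT1, a cyclin of transcription elongation. Transcripts of the growth factor receptor EGFR, the adhesion adaptor TNS4, the death adaptor FADD, the interleukins IL1A and IL1B, the replication factor GINS1 and most measured genes of homologous recombination fell. Changes were widespread. Of 26485 symbols, 14011 had enough counts to be tested and 12474 did not. Of those tested, 69.4% were called at an adjusted p under 0.05, 35.2% as higher and 34.1% as lower. These shares are the background for the counts of each list below, so a list with both rises and falls is the usual case. At least 2-fold changes were less balanced, with 5.73% of genes higher and 15.1% lower. The filter on counts used the libraries of all lines, and 12027 genes passed it with the BxPC3 libraries alone. Among the 9480 tested genes with at least 10 CPM in a BxPC3 group, 45.8% were higher and 37.9% lower, with a median log2 fold change of 0.09. The 3 THZ1 libraries did not overlap the 3 DMSO libraries in 71% of the genes tested, so a lack of overlap for a named gene below is the usual case and not a mark of that gene.

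CDK7 forms a kinase module with cyclin H (CCNH) and the assembly factor MAT1 (MNAT1). As part of the general transcription factor TFIIH, this module phosphorylates the tail of RNA polymerase II when a gene starts to be transcribed, and it also activates other cyclin-dependent kinases. CDK9 with a T-type cyclin (P-TEFb) releases paused polymerase, and CDK12 and CDK13 with cyclin K (CCNK) act later along the gene. Immediate early genes are short genes that are switched on within minutes of a stimulus without new protein synthesis. The amount of a poly(A) transcript reflects both its synthesis and its decay, and these counts do not separate them. In bulk RNA, fewer cells of a type and less RNA per cell cannot be told apart either.

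Gene counts per library were 7618101 to 8263032 with DMSO and 6890956 to 7440645 with THZ1. The share of counting records, not of reads, set aside for multiple alignments was 12.8% ± 0.609 with DMSO and 22.8% ± 0.805 with THZ1 (SD, n = 3). The 10 most counted genes held 4.36% ± 0.0476 of gene counts with DMSO and 5.78% ± 0.0518 with THZ1. For both shares the exact 2-sided permutation p was 0.1, the smallest that 3 against 3 allows. The effect of this shift on single genes was not tested. Directions depend on how libraries are scaled. TMM scaling sets the median gene near 0. Scaling by library size alone lowers the median of all genes by 0.354 on the log2 scale, so that 26.8% and not 50.8% of the calls are higher. With that scaling 450 of the 4938 genes called higher are called lower. Every fold change below is relative to the TMM baseline. Neither scaling measures the amount of RNA per cell, so a change in total RNA is not seen, and larger rises could also depend on it. Small rises, up to that of ATF4 (0.39) among the genes named, turn into falls with library size scaling. Some larger rises are no longer called with it, namely those of CCNH (0.41), INTS1 (0.43), CXCL16 (0.57), YAP1 and SIRT6. The labelled line was checked by its known losses: CDKN2A and CDKN2B had 0 counts in all 6 libraries, and SMAD4 had 0 counts with DMSO and 1 count over the 3 THZ1 libraries. The 7 ductal and epithelial markers summed to 6321 to 6444 CPM with DMSO and to 9759 to 10076 CPM with THZ1. Defining markers of immune cells (PTPRC), fibroblasts (PDGFRB, DCN), endothelium (KDR), acinar cells (CELA3A, PNLIP, CTRB1) and endocrine cells (INS, GCG, SST) had 0 counts in all 6 libraries. Other markers of these lists were counted, mostly CD68, COL1A1 and CDH5. The summed level of the 5 immune markers was 22.5 to 25.6 CPM with DMSO and 35.6 to 40.9 CPM with THZ1, that of the 6 fibroblast markers 7.91 to 11.9 and 14.8 to 19.8 CPM, and that of the 4 endothelial markers 4.07 to 4.99 and 6.58 to 7.42 CPM. Their part in the results was not tested.

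Immediate early genes were among the strongest rises. FOS, the founding member of the AP-1 transcription factors, was at 10.8, 11.3 and 11.96 CPM in the 3 DMSO libraries and at 149, 139 and 149 CPM in the 3 THZ1 libraries. The THZ1 libraries lay far above the DMSO libraries, with little spread within a group. The log2 fold change was 3.68 (SE 0.08, edgeR quasi-likelihood adjusted p = 2.73e-58). JUNB, a partner of FOS in AP-1, was at 147, 183 and 169 CPM with DMSO and at 932, 988 and 1085 CPM with THZ1 (log2 fold change 2.59, SE 0.09). FOSB went from 9.98, 10.97 and 11.3 CPM to 33.6, 34.1 and 32.1 CPM (1.63, SE 0.12), and the stress-induced factor ATF3 rose by 1.40 on the log2 scale from a mean of 4.96 CPM. The rise did not extend to the whole AP-1 family. Of 10 tested AP-1 genes 4 rose (40%) and 3 fell (30%), near the 35.2% and 34.1% of all genes tested. Their median was -0.01. FOSL1, a FOS-type factor linked to ERK signalling, fell from 217, 206 and 205 CPM to 94.6, 88.9 and 99.0 CPM (-1.15, SE 0.05), and FOSL2 fell by 0.77 on the log2 scale. JUN was at 104, 114 and 112 CPM with DMSO and at 107, 115 and 118 CPM with THZ1 and did not pass the test (0.04, adjusted p = 0.575).

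Other immediate early genes rose with FOS. Of 16 tested transcription factor genes of this class 12 rose and 2 fell, with a median log2 fold change of 0.76 against 0 over all genes tested. Of 23 other immediate early genes 16 rose and 5 fell, with a median of 0.37, which became -0.03 with library size scaling (9 higher and 9 lower). IER2, a short nuclear protein gene of growth factor responses, was at 112, 125 and 128 CPM with DMSO and at 821, 868 and 910 CPM with THZ1 (2.83, SE 0.05). IER5L rose from a mean of 37.8 to 251 CPM (2.73) and IER3, a regulator of apoptosis and ERK signalling, from 122 to 474 CPM (1.95). The salt and survival kinase SGK1 rose by 1.90 and the stress sensor GADD45B by 1.67 on the log2 scale. ARC, best known from neurons, was near absent with DMSO (0.243, 0.452 and 0.114 CPM) and at 10.8, 10.3 and 10.3 CPM with THZ1 (5.19, SE 0.35). Among transcription factors, KLF10 rose by 1.46, KLF6 by 1.07 and MAFF by 0.92. EGR1, a main target of serum response factor, moved less, from 20.1, 20.6 and 23.0 CPM to 36.5, 32.4 and 34.7 CPM (0.70, SE 0.10). Exceptions fell: the interferon regulatory factor IRF1 (-1.54), the kinase PLK3 (-1.74) and MYC, at 142, 165 and 149 CPM with DMSO and at 99.6, 112 and 105 CPM with THZ1 (-0.53, SE 0.06).

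The promoters of 3 of the AP-1 genes that rose and of EGR1 are shown because they share short known elements. They run from 250 bases before to 50 bases after the transcription start in RefSeq on GRCh38.p14, 5′ to 3′ on the gene's strand. FOS is at chr14:75278578-75278877, FOSB at chr19:45467746-45468045, JUNB at chr19:12791236-12791535 and EGR1 at chr5:138465229-138465528, all on the plus strand. Capitals mark 3 elements. The first is TATAAA, the core of the TATA box. The next is the core of cAMP response elements, TGACG on the strand shown. On the other strand it reads CGTCA. The last is the CArG box of serum response factor, named without its letters.
FOS: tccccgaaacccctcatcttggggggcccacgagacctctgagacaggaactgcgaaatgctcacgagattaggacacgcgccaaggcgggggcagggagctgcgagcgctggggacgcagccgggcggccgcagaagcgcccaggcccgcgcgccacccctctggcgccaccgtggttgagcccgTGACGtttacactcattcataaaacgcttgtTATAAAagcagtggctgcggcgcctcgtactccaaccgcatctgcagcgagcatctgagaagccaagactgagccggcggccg
FOSB: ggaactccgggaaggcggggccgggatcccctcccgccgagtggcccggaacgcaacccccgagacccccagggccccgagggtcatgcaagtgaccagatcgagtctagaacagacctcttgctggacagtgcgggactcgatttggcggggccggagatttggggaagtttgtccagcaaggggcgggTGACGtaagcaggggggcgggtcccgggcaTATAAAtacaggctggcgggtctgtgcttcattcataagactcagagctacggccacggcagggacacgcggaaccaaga
JUNB: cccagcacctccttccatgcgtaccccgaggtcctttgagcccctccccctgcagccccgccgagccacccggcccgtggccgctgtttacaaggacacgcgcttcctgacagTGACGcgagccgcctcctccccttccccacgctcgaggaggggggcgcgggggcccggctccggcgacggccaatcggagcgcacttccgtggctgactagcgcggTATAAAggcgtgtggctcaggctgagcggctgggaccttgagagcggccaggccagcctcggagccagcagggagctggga
EGR1: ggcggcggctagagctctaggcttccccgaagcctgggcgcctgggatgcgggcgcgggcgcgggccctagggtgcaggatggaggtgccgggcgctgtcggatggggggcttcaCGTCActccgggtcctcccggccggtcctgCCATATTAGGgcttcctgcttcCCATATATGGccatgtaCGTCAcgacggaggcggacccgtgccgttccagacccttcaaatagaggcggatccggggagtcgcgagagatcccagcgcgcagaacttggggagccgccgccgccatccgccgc
FOS, FOSB and JUNB each held TATAAA, starting 33, 30 and 31 bases before the transcription start, and a TGACG core upstream of it. EGR1 held 2 CArG boxes and 2 CGTCA cores but no TATAAA in this window. Both strands were searched for each motif. TATAAA was in 9 of 25 promoters of the immediate early genes that rose (36%) and in 2 of 13 promoters of those that did not. It was in 5.13% of the 7797 promoters of genes that reached 10 CPM in a group and in 11.5% of all 35116 promoters of the table, which covers 11021 of the genes tested. Of the 7797 genes that reached 10 CPM, those higher by at least 2-fold held it in 39 of 375 promoters (10.4%), and those lower by at least 2-fold in 50 of 1020 (4.90%). TGACG was in 44% of the promoters of the immediate early genes that rose, in 9 of 13 of those that did not and in 36.2% of those with at least 10 CPM. These shares describe letters in a fixed window and not bound sites.

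**Figure D1:**
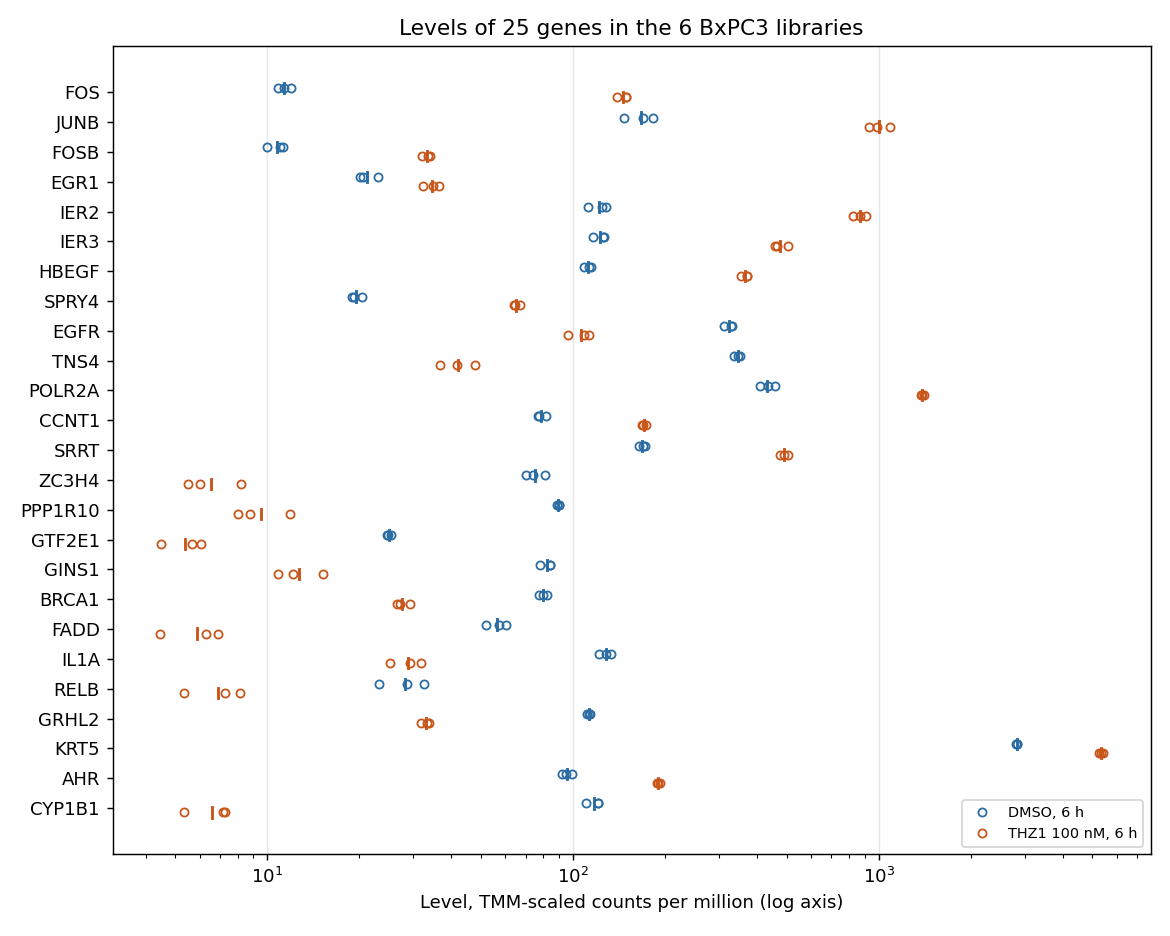
Level of 25 genes in each of the 6 BxPC3 libraries, in TMM-scaled CPM on a log axis. Open circles are libraries, short bars the mean of 3, blue is DMSO and orange is THZ1. For every gene drawn the 3 THZ1 circles lie apart from the 3 DMSO circles, with FOS moving from 11.4 to 146 CPM and CYP1B1 from 117 to 6.58 CPM.

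The transcripts of the drug's targets moved little and in both directions. CDK7 was at 32.1, 29.6 and 30.9 CPM with DMSO and at 20.6, 19.4 and 20.8 CPM with THZ1 (-0.60, SE 0.10). CDK12 fell by 0.58 from 100 CPM, whereas CDK13 (0.22), CCNH (0.41) and MNAT1 (0.20) stood a little higher. With library size scaling CDK13 (-0.18) and MNAT1 (-0.20) were lower and CCNH was at 0.02. The MNAT1 call was also lost without DMSO replicate 1 or 3 or THZ1 replicate 1 or 3 (0.12 to 0.19). CCNK rose by 0.55. P-TEFb was split. Its kinase CDK9 fell by 0.57, while its cyclins rose: CCNT1 from 81.8, 77.1 and 76.9 CPM to 174, 168 and 170 CPM (1.12, SE 0.06) and CCNT2 from 34.1 to 71.5 CPM (1.07).

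Of 16 tested genes of P-TEFb regulation 7 rose (43.75%) and 5 fell (31.25%). These shares are near those of all genes tested, 35.2% and 34.1%. HEXIM1, which holds P-TEFb inactive on the 7SK RNA and is itself induced when P-TEFb is released, rose by 0.91 from 98.2 to 184 CPM. Both MEPCE and LARP7 of the 7SK particle fell: MEPCE, which caps 7SK, from 107, 109 and 103 CPM to 38.2, 43.5 and 38.7 CPM (-1.40, SE 0.07), and LARP7, which stabilises it, by 0.70 on the log2 scale. EAF1, a partner of the elongation factor ELL, rose by 1.39.

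Among polymerase subunits, POLR2A, the catalytic subunit, was at 408, 456 and 433 CPM with DMSO and at 1374, 1401 and 1388 CPM with THZ1 (1.68, SE 0.04, adjusted p = 4.00e-59). The list of 12 polymerase subunits had 9 higher and 2 lower genes and a median of 0.76. Of 24 genes of initiation factors 13 rose (54.2%) and 10 fell (41.7%), and with library size scaling 4 rose and 12 fell. GTF2E1, the large subunit of TFIIE that recruits TFIIH, fell from 24.6, 25.3 and 24.8 CPM to 6.05, 5.66 and 4.49 CPM (-2.21, SE 0.14), and the TFIID subunit TAF5 fell by 1.75. The TFIID subunits TAF3 (1.22) and TAF9 (1.02) rose. TFIIH core subunits GTF2H1 (-0.83) and ERCC3 (-0.75) fell, and 2 others of 6 tested rose by at most 0.25. Of 33 Mediator genes 13 rose (39.4%) and 14 fell (42.4%), with 5 higher and 21 lower under library size scaling. They ran from MED22 (-1.76) and MED8 (-1.75) to MED30 (0.96). Over all genes tested 35.2% were higher and 34.1% lower.

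The largest changes within the lists of RNA polymerase II machinery were in factors that end transcription. ZC3H4, which with WDR82 stops transcription of noncoding and non-productive RNA, was at 70.1, 80.8 and 73.8 CPM with DMSO and at 8.18, 6.01 and 5.48 CPM with THZ1 (-3.52, SE 0.11). PPP1R10 (PNUTS), the targeting subunit of a phosphatase that slows polymerase past the polyadenylation site, fell from 89.8, 90.3 and 88.6 CPM to 8.003, 11.8 and 8.80 CPM (-3.23, SE 0.10). All 3 THZ1 libraries lay far below all 3 DMSO libraries for both genes. WDR82, shared by both complexes, fell by 1.09 and ZC3H18, a cap-binding partner of nuclear decay, by 1.01. SRRT (ARS2), which links the cap-binding complex to termination, rose instead, from 169, 172 and 165 CPM to 476, 506 and 489 CPM (1.54, SE 0.04), and the termination factor PCF11 rose by 0.56.

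For comparison with the promoters above, those of HEXIM1 (chr17:45148225-45148524, plus strand), ZC3H4 (chr19:47113727-47114026, minus strand) and PPP1R10 (chr6:30617194-30617493, minus strand) are given with the same 3 motifs in capitals.
HEXIM1: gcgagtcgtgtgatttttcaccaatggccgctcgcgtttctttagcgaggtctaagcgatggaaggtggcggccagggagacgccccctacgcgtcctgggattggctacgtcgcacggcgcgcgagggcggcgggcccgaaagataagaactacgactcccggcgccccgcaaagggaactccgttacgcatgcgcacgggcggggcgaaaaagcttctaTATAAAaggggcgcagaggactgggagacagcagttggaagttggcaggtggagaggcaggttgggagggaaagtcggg
ZC3H4: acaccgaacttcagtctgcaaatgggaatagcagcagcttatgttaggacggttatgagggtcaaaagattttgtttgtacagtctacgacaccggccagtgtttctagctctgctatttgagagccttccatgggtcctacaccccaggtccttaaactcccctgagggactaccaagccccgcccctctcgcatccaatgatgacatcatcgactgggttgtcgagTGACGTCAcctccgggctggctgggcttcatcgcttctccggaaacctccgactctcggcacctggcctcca
PPP1R10: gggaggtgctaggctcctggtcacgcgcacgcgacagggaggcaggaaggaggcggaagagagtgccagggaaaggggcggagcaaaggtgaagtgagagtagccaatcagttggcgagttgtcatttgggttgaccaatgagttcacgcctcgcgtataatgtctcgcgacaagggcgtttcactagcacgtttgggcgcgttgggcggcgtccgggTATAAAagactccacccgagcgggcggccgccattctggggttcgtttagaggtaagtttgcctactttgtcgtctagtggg
TATAAA stood 29 bases before the start of HEXIM1, which rose, and 32 bases before the start of PPP1R10, which fell. ZC3H4 held TGACGTCA, in which TGACG and CGTCA overlap, from 22 to 15 bases before its start. So the elements occur in promoters of genes that moved either way.

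In the cleavage and polyadenylation list 7 of 16 genes rose (43.75%) and 8 fell (50%), against 35.2% and 34.1% of all genes tested. The subunits of cleavage factor I rose, CPSF6 from 108, 106 and 113 CPM to 279, 280 and 270 CPM (1.34, SE 0.05) and NUDT21 by 1.01, whereas CPSF7, its alternative large subunit, fell by 0.36. CSTF3, the scaffold of cleavage stimulation factor, fell from 63.3, 61.0 and 65.5 CPM to 13.3, 15.03 and 15.9 CPM (-2.09, SE 0.09) and CSTF1 by 1.64. Integrator, the complex that cleaves nascent RNA near promoters, fell more evenly: 8 of 11 genes were lower, 1 was higher (INTS1, 0.43) and the median was -0.97. With library size scaling the INTS1 call was lost (0.03, adjusted p = 0.618) and 10 were lower. INTS6 went from a mean of 52.3 to 11.8 CPM (-2.14) and INTS3 from 74.4 to 22.3 CPM (-1.74). Of 19 tested SR protein and CLK kinase genes 10 rose and 6 fell, with 6 higher and 11 lower under library size scaling. The splicing factor SRSF3 was at 340, 342 and 363 CPM with DMSO and at 92.5, 97.2 and 105 CPM with THZ1 (-1.82, SE 0.05), and SRSF1 fell by 0.97. TRA2B (1.02) and the kinase CLK1 (0.87) rose. Among elongation factors, IWS1 fell by 1.54 and SUPT5H, the large DSIF subunit, rose by 0.75.

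Subunits of single complexes were set side by side for 12 complexes, a grouping made after the values were seen. The distance between the lowest and the highest subunit does not depend on scaling. It was 2.997 log2 units in GINS, the complex that activates the replicative helicase, between GINS1 and GINS2. GINS1 was at 78.1, 84.2 and 84.0 CPM with DMSO and at 12.1, 15.2 and 10.8 CPM with THZ1 (-2.70, SE 0.09), while GINS2 was at 0.30. In DNA polymerase alpha and primase the distance was 2.43, with PRIM1 at -2.05 and POLA2 at -1.72 but POLA1 at 0.38. In DNA polymerase delta it was 2.56, with POLD3 at -1.80 and POLD2 at 0.75. It was smallest among the 12 in the MCM2-7 helicase, at 1.41. Over all genes tested 35.2% were higher and 34.1% lower, so both directions within a set of several genes are not unusual. In 11 of the 12 complexes at least 1 subunit rose and 1 fell, which held in 5 with library size scaling. GINS2 and POLA1 stood below 0 with that scaling.

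**Figure D2:**
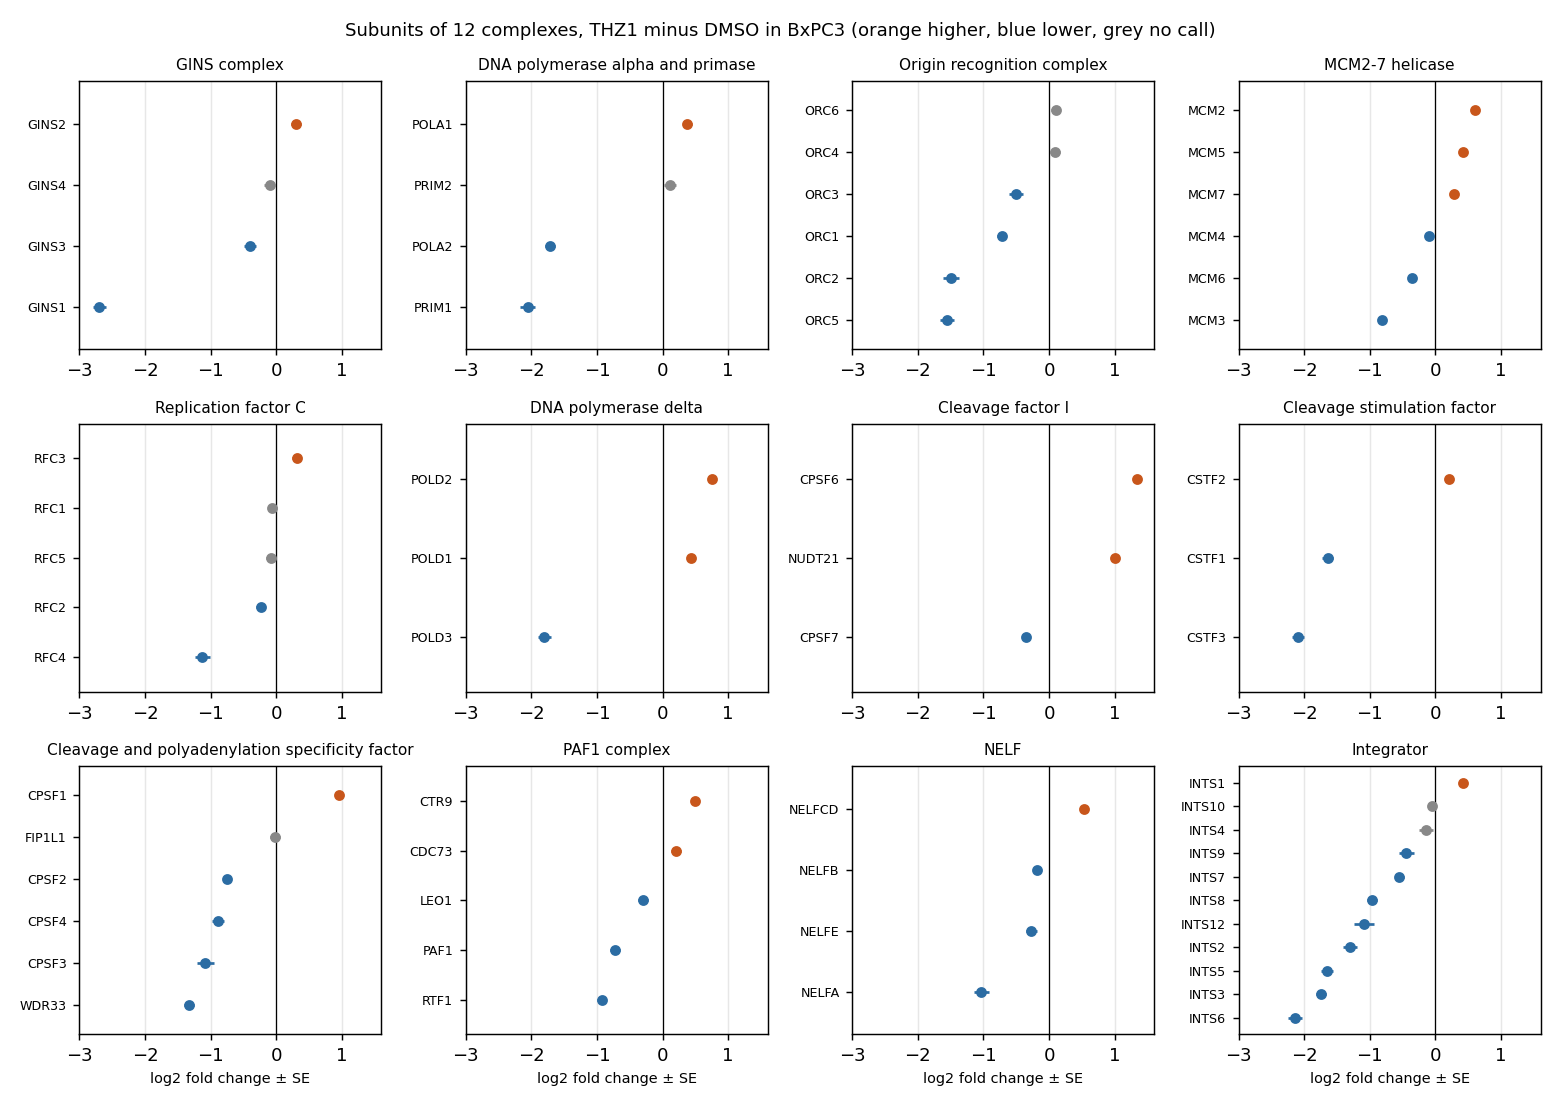
Log2 fold change (THZ1 minus DMSO in BxPC3) of the subunits of 12 complexes, each point 1 gene with its SE, orange for higher, blue for lower and grey for no call. Subunits of 1 complex spread over 1.41 to 2.997 log2 units, with GINS1 at -2.70 far from the other GINS genes.

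DNA replication genes as a list had 15 of 48 higher and 24 lower (6 and 35 with library size scaling). The transcription factor E2F1, which drives many of them, fell from 53.9, 54.2 and 54.8 CPM to 14.2, 15.03 and 15.1 CPM (-1.87, SE 0.09). Members that rose included TYMS, the thymidylate synthase, by 0.91, TK1, the thymidine kinase, by 0.82 and RRM1, a subunit of ribonucleotide reductase, by 0.64. Mitotic genes had 14 of 36 higher and 17 lower (4 and 24 with library size scaling). These are 38.9% and 47.2%, against 35.2% and 34.1% of all genes tested. The kinetochore genes NDC80 (-1.41) and CENPA (-1.25) and the checkpoint kinase BUB1B (-1.13) fell, whereas PRC1 (0.77), PTTG1 (0.76), CCNB2 (0.65) and UBE2C (0.63) rose. CDKN1A, the p21 inhibitor of the cell cycle, was at 111, 122.7 and 111 CPM with DMSO and at 104, 114 and 106 CPM with THZ1 and did not pass the test (-0.09, adjusted p = 0.167), although it was called lower with library size scaling (-0.49) and in a fit of the BxPC3 libraries alone (-0.14). Of 21 tested p53 target genes 5 rose and 10 fell. PHLDA3, a repressor of AKT, fell most among those with at least 10 CPM (-1.94), and GDF15 rose by 0.88.

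Genes of homologous recombination and of the Fanconi anaemia pathway, which repairs DNA crosslinks, fell together. Of 35 tested genes 26 fell and 5 rose, with a median of -0.68. SLX4, the scaffold of structure-specific nucleases, was at 20.4, 23.2 and 20.8 CPM with DMSO and at 3.20, 2.65 and 1.99 CPM with THZ1 (-3.04, SE 0.18). FANCF, an adaptor of the Fanconi core complex encoded in 1 exon, fell from 26.3, 24.8 and 21.9 CPM to 3.20, 3.36 and 3.65 CPM (-2.83, SE 0.18). XRCC2, a strand exchange factor of homologous recombination, fell by 2.09 and the nuclease subunit EME1 (-1.86) fell as well. BRCA1, named here after its value was seen, fell from 80.0, 82.5 and 77.4 CPM to 26.5, 29.2 and 27.1 CPM (-1.54, SE 0.08). FANCA was an exception and rose by 0.56. CDK12 is known for a role in the expression of long DNA repair genes, but the part of each kinase that THZ1 binds cannot be told apart in these groups.

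Among growth factor signalling genes, the receptor EGFR fell and its ligand HBEGF rose. EGFR was at 313, 332 and 328 CPM with DMSO and at 109, 96.2 and 113 CPM with THZ1 (-1.61, SE 0.05). Its family member ERBB3 fell by 0.87 from 87.8 CPM and the HGF receptor MET by 0.37 from 668 CPM. HBEGF, a ligand of EGFR, rose from 114, 109 and 113 CPM to 370, 371 and 353 CPM (1.70, SE 0.05), while the ligand AREG fell by 0.46. In all, 2 of 10 tested genes of this list rose and 6 fell. Of 14 genes of ERK feedback and output 4 rose and 9 fell, with a median of -0.36. SPRY4, a feedback inhibitor of receptor tyrosine kinases, rose from 19.2, 18.9 and 20.4 CPM to 64.2, 64.5 and 66.9 CPM (1.74, SE 0.08). The ERK phosphatases DUSP7 (-0.62) and DUSP4 (-0.51) and the ERK-responsive PHLDA1 (-0.51) fell. TNS4, an adhesion adaptor that binds MET and EGFR signalling complexes, was among the 8 genes that lost most CPM. It was at 337, 352 and 347 CPM with DMSO and at 36.6, 47.7 and 41.9 CPM with THZ1 (-3.04, SE 0.06).

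Targets of YAP and TEAD, which report on adhesion and growth, had 7 of 25 genes higher and 14 lower with a median of -0.25 (0 higher and 19 lower with library size scaling). YAP1 itself rose by 0.48, a call lost with that scaling (0.087, adjusted p = 0.0935), whereas AJUBA fell from 407, 412 and 405 CPM to 158, 163 and 162 CPM (-1.34, SE 0.05) and ANKRD1 from a mean of 32.1 to 12.6 CPM (-1.35). F3, the gene of tissue factor, fell from 1924 to 1261 CPM (-0.61). In the TGF-beta and BMP list 12 of 23 genes rose and 6 fell, with a median of 0.40 that was 0.00 with library size scaling. BxPC3 lacks SMAD4 counts, as above. PMEPA1, a feedback inhibitor of TGF-beta signalling, fell from 114, 111 and 110 CPM to 34.1, 31.6 and 35.1 CPM (-1.73, SE 0.07), and the inhibitory SMAD7 rose from 8.05 to 17.6 CPM (1.13).

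Death and survival genes showed no common direction. FADD, which couples death receptors to caspase 8, was at 52.1, 60.3 and 57.3 CPM with DMSO and at 4.45, 6.89 and 6.31 CPM with THZ1 (-3.26, SE 0.12), which is among the 12 largest falls. MCL1, a short-lived antiapoptotic protein gene often followed under transcriptional inhibitors, was at 397, 404 and 404 CPM with DMSO and at 289, 325 and 297 CPM with THZ1 (-0.40, SE 0.04). BCL2L1 did not pass the test (107, 90.5 and 104 CPM against 95.5, 105 and 99.0 CPM, adjusted p = 0.929), but was called lower with library size scaling (-0.40). Of 11 tested antiapoptotic genes 2 rose and 6 fell, with BCL2L2 at -0.87, XIAP at -0.58 and BIRC5, which also acts in mitosis, at 0.69. Of 13 tested proapoptotic genes 5 rose and 6 fell. The BH3-only genes PMAIP1 (NOXA, from 40.9 to 78.8 CPM, 0.95) and BCL2L11 (BIM, from 16.9 to 31.9 CPM, 0.92) rose, and the pore-forming BAK1 (-0.71) fell.

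Among inflammatory genes, IL1A and IL1B fell. These genes, which lie in 1 cluster on chromosome 2, were abundant with DMSO: IL1A was at 128, 122 and 133 CPM and IL1B at 121, 122 and 121 CPM. With THZ1, IL1A was at 29.3, 31.8 and 25.2 CPM (-2.15, SE 0.08) and IL1B at 27.7, 29.7 and 34.7 CPM (-1.98, SE 0.08). The chemokine genes CXCL5 (0.75) and CXCL16 (0.57) rose, although the CXCL16 call was lost with library size scaling (0.18, adjusted p = 0.143). Of 20 tested cytokine and chemokine genes 5 rose and 7 fell, with a median of -0.01. Of 15 NF-kB genes 4 rose and 8 fell. The subunits differed. RELB and NFKB2, partners in the noncanonical pathway, fell from means of 28.1 to 6.91 CPM (-2.02) and from 76.4 to 31.8 CPM (-1.26), and NFKB1 rose from 148 to 221 CPM (0.58). The NF-kB target TRAF1 was at 14.97, 15.9 and 16.97 CPM with DMSO and at 3.02, 3.18 and 2.82 CPM with THZ1 (-2.40, SE 0.18).

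Keratin genes, which mark epithelial cells, rose, while several transcription factors of epithelial cells fell. Of 15 tested keratin genes 10 rose and 1 fell, with a median of 0.73. KRT5, the main basal keratin, was at 2841, 2814 and 2829 CPM with DMSO and at 5342, 5270 and 5426 CPM with THZ1 (0.92, SE 0.10), and KRT8 rose from 1310 to 2949 CPM (1.17). KRT17 rose from 2516 to 4187 CPM (0.73). DESeq2 gave KRT5 and KRT17 like changes (0.96 and 0.78) that it did not call (adjusted p = 0.270 and 0.265). KRT80 fell by 0.89. E-cadherin (CDH1) rose by 0.72, and SNAI2, a repressor of it, fell by 0.88. Of 25 squamous and epithelial transcription factors 6 rose and 11 fell. GRHL2, a keeper of epithelial identity, was at 113, 113 and 111 CPM with DMSO and at 31.8, 33.2 and 33.7 CPM with THZ1 (-1.77, SE 0.07). The epithelial splicing regulator ESRP2 fell from 81.8 to 24.3 CPM (-1.75), RUNX1 from 88.7 to 36.5 CPM (-1.28) and ELF4 by 1.07. TP63, named after its value was seen, fell from 258, 244 and 272 CPM to 142, 140 and 143 CPM (-0.87, SE 0.05). OVOL1, which acts in keratinocyte differentiation, rose by 1.14. Of 13 tested endodermal factors 8 fell, with a median of -0.65. GATA6, a marker of the classical subtype, was at 51.2, 58.2 and 55.6 CPM with DMSO and at 43.6, 42.4 and 47.8 CPM with THZ1 (-0.30, SE 0.08).

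The aryl hydrocarbon receptor and its targets separated. AHR, a ligand-activated transcription factor, rose from 98.8, 95.1 and 92.0 CPM to 192, 188 and 190 CPM (0.99, SE 0.05). Its classic target CYP1B1, an enzyme of oestrogen and xenobiotic metabolism, was at 121, 110 and 121 CPM with DMSO and at 5.34, 7.25 and 7.14 CPM with THZ1 (-4.15, SE 0.11). The feedback targets AHRR (-0.93) and TIPARP (-0.80) fell as well. NQO1, shared with NRF2, rose by 0.90, and 3 of 11 tested genes of this list rose and 6 fell. NRF2 targets, which protect against oxidants, had 17 of 24 genes higher and 5 lower, with a median of 0.48 that was 0.08 with library size scaling (9 higher and 8 lower). The ferritin light chain FTL (1.17) and thioredoxin TXN (1.15) rose, and OSGIN1 fell from 11.98 to 2.98 CPM (-1.99).

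Genes of the integrated stress response, which the series title names, rose and fell in shares not far from those of all genes tested. ATF4, the central factor of the integrated stress response, was at 236, 225 and 225 CPM with DMSO and at 302, 290 and 307 CPM with THZ1 (0.39, SE 0.04), and at 0.00 on the log2 scale with library size scaling. Its targets for amino acid supply ASNS (0.98), SHMT2 (0.92) and PHGDH (0.91) rose. Other genes of the list fell, among them DDIT3 (CHOP) from 8.88, 8.37 and 7.97 CPM to 0.889, 1.77 and 1.99 CPM (-2.42, SE 0.24), and PPP1R15A (-1.12), which resets eIF2 alpha phosphorylation. ATF3, also in this list, rose as given above. In this list 15 of 37 genes rose (40.5%) and 10 fell (27.0%), against 35.2% and 34.1% of all genes tested. XBP1, a factor of the unfolded protein response, fell from 53.8 to 16.5 CPM (-1.70), while the chaperone gene DNAJC3 rose by 1.09. The heat shock genes HSPA1A (from 76.6 to 189 CPM, 1.30) and HSPA1B (from 64.5 to 198 CPM, 1.62) rose and DNAJB1 (-1.35) and HSPA8 (-0.71) fell. HSPA1A and HSPA1B are near-identical, so their split is uncertain. SIRT6 was at 14.97, 13.1 and 13.4 CPM with DMSO and at 22.8, 21.6 and 20.8 CPM with THZ1 (0.65, SE 0.12), and this rise was not called with library size scaling (0.25, adjusted p = 0.0547).

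A ranking by gain or loss of CPM, unlike one by fold change, favours abundant genes. Of protein-coding genes with a mean of 500 CPM or more 96.3% were higher, with a median of 0.76. GAPDH, PKM, FLNA, EEF1A1, ACTB, APLP2, RPS2 and KRT5 gained most CPM, with GAPDH going from 5300 to 11463 CPM (1.11) and APLP2, an amyloid precursor-like protein gene, from 2615 to 5278 CPM (1.01). The genes that lost most CPM were HSPA8, F3, ALDH1A3, LINC00657 (the noncoding RNA NORAD, -0.97), TNS4, PVRL1 (nectin 1, -0.47), THBS1 (thrombospondin 1, -1.11) and SRSF3. Proteasome genes had 33 of 37 tested higher and 2 lower, with a median of 0.50 that was 0.11 with library size scaling (18 higher and 9 lower). Cytoplasmic ribosomal protein genes were higher in 76 of 76, by 0.46 to 1.16. Mitochondrial ribosomal protein genes did not move with them: 31 of 77 rose and 25 fell, with a median of 0.06 and a lowest member, MRPL36, at -1.35. Ribosome biogenesis factors had 11 of 47 higher and 28 lower, with GNL3 (nucleostemin) falling from 146 to 44.2 CPM (-1.72) and NOP56 rising from 572 to 1093 CPM (0.93). Cholesterol genes had 18 of 27 higher and 5 lower (7 and 12 with library size scaling). Among them the sterol sensor INSIG1 fell by 0.95, whereas the synthesis enzyme MVD rose by 0.92.

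**Figure D3:**
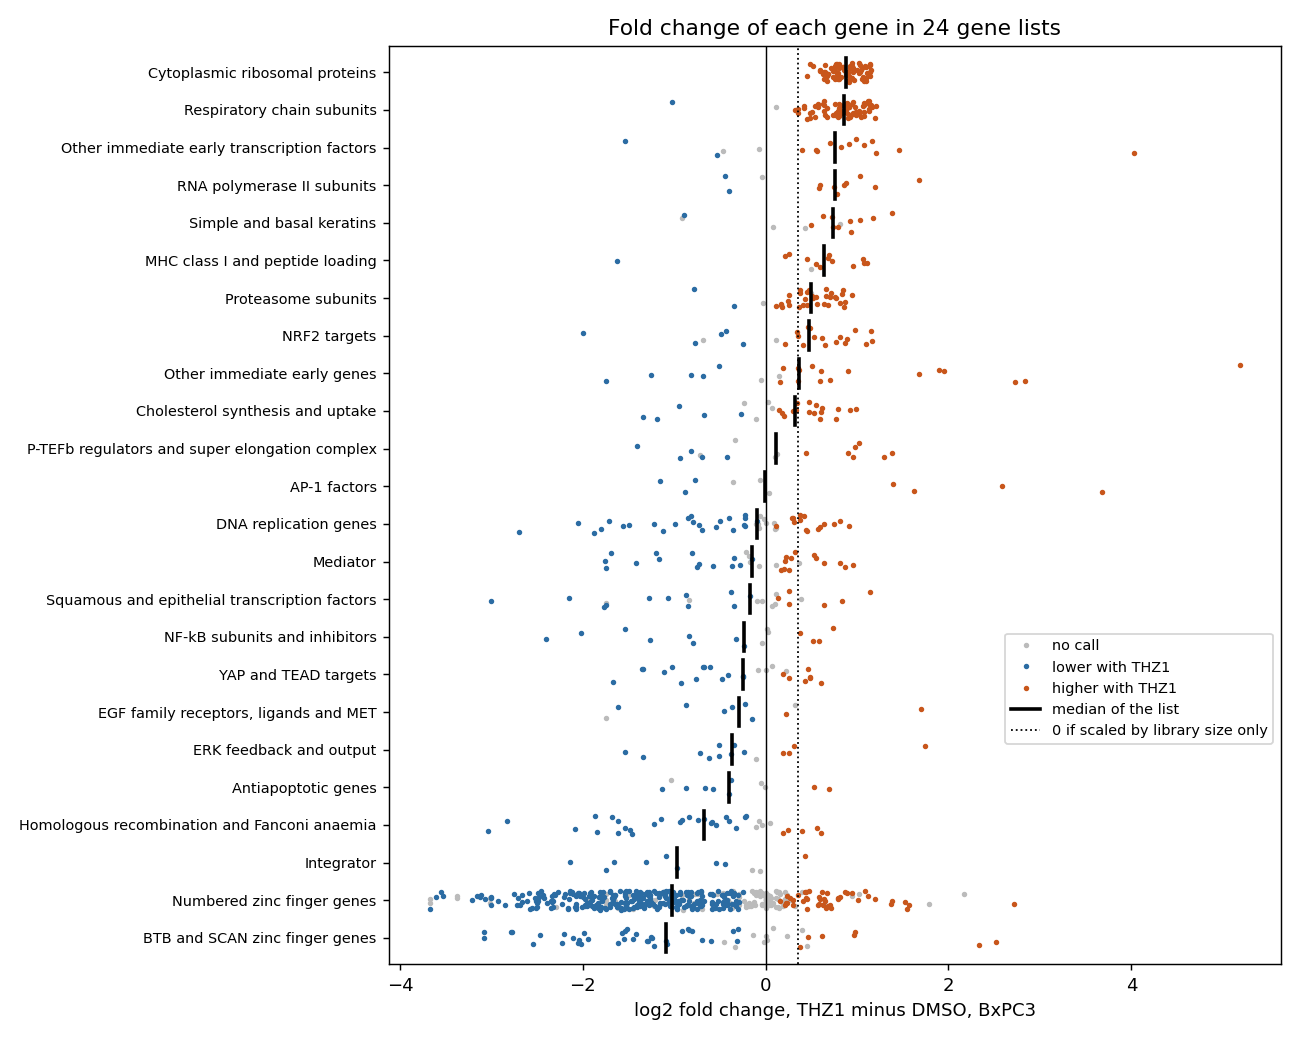
Log2 fold change (THZ1 minus DMSO in BxPC3) of each tested gene in 24 gene lists, ordered by list median. Each dot is 1 gene, orange if higher, blue if lower and grey without a call, and the black bar is the median. The dotted line is at 0.354, the fall of the median of all genes with library size scaling. Most list medians fell slightly more, as from 0.88 to 0.48 for cytoplasmic ribosomal protein genes. Ribosomal protein genes form a narrow group around 0.88, while AP-1 genes reach from -1.15 to 3.68 and numbered zinc finger genes centre on -1.03.

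The lists' counts sit within broader trends over gene features, described here for 8872 protein-coding genes that averaged 10 CPM or more over the 6 libraries. Genes with transcripts under 1 kb had a median log2 fold change of 0.76, and 86.3% of the 388 were higher. The median fell with each length class to -0.09 for 5 kb or more (2321 genes). The order was the same among genes of 50 to 500 CPM, from 0.80 to 0.10, and the shortest class stood at 0.72 without ribosomal protein, respiratory chain and proteasome genes (295 genes). Spearman's correlation with the fold change was -0.244 for transcript length, 0.398 for the mean level and -0.070 for the number of exons, across genes that share libraries. Genes of 1 exon were more often lower than higher. Of 147 such genes 63.9% were lower and 23.1% higher, with a median of -0.62. At least 2-fold falls made up 36.1%, against 11.2% of all 8872 genes, and at least 2-fold rises 10.2%, against 4.94%. IER2, IER5L and JUNB are among the 1-exon genes that rose by at least 2-fold, and FANCF is among those that fell.

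**Figure D4:**
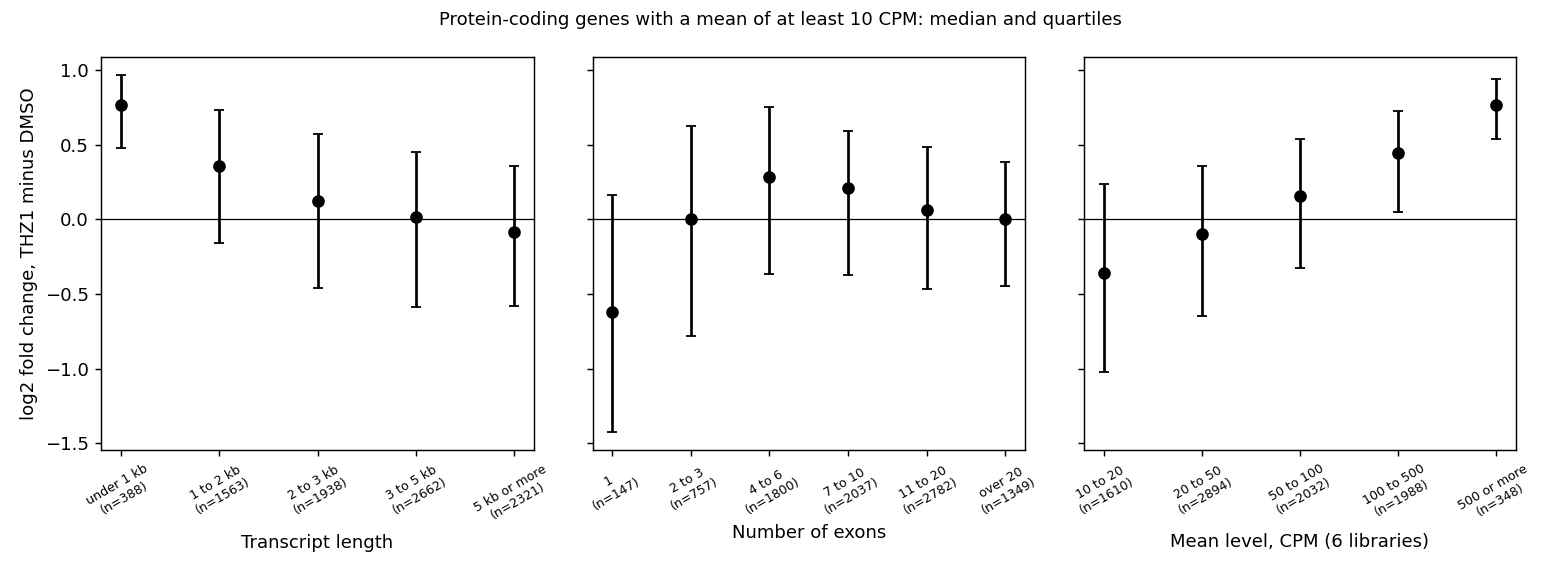
Median (points) and quartiles (bars) of the log2 fold change of 8872 protein-coding genes by transcript length, number of exons and mean level in CPM, with the number of genes under each class. The median falls from 0.76 under 1 kb to -0.09 at 5 kb or more, is -0.62 in genes of 1 exon, and rises from -0.36 at 10 to 20 CPM to 0.76 at 500 CPM or more.

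By size of change alone, the 12 largest rises among genes reaching 10 CPM were RNA45S5 (the ribosomal RNA precursor, 8.51), ARC (5.19), LINC00926 (4.58), FOS (3.68), LSMEM1 (3.54), SLC7A5P2 (3.45), NNAT (an imprinted gene, 3.32), RNA28S5 (ribosomal RNA, 3.03), UCKL1-AS1 (2.99), SMG1P3 (2.84), IER2 (2.83) and IER5L (2.73). RNA45S5 had 11 to 13 counts per DMSO library and 2764 to 3455 per THZ1 library. The 12 largest falls were RPSAP52 (-4.79), CYP1B1 (-4.15), USH1G (-3.81), BDKRB2 (the bradykinin B2 receptor, -3.52), ZC3H4 (-3.52), C16orf54 (-3.38), HOMEZ (a homeobox gene, -3.30), FADD (-3.26), PPP1R10 (-3.23), APOLD1 (-3.11), GPR132 (an acid-sensing receptor, -3.10) and ZBTB42 (-3.08). Several of these cannot be assigned with certainty. The strand setting of the counting is not given in the sources used here, and NNAT, UCKL1-AS1, IER2, IER5L, RPSAP52, CYP1B1, BDKRB2, ZC3H4, C16orf54, HOMEZ, FADD, PPP1R10 and APOLD1 overlap other gene models on the opposite strand. So do other genes named above, for example JUNB, FOSB, GTF2E1, CSTF3, FANCF, KRT8, MEPCE, NUDT21, BRCA1, PRIM1, TYMS and DNAJB1. LSMEM1 overlaps IFRD1 and APOLD1 overlaps DDX47 on the same strand. The ribosomal RNAs and the pseudogenes SLC7A5P2, SMG1P3 and RPSAP52 have near-identical copies.

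In GENCODE 29 on GRCh38, JUNB lies on chromosome 19 from 12791496 to 12793315, IER2 on chromosome 19 from 13150415 to 13154908, EGFR on chromosome 7 from 55019021 to 55211628 and HBEGF on chromosome 5 from 140332843 to 140346631. PPP1R10 lies on chromosome 6 from 30600400 to 30618612, FADD on chromosome 11 from 70203163 to 70207390, GINS1 on chromosome 20 from 25407727 to 25452628 and TNS4 on chromosome 17 from 40475828 to 40501597. JUNB and IER2 have 1 exon, FADD 2, GINS1 7 and EGFR 28.

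The response of BxPC3 was then compared with the mean response of Panc327 and SUIT2 by 1 contrast in the same model. It was higher in BxPC3 for 3521 genes (25.1% of those tested) and lower for 2372 (16.9%) at an adjusted p under 0.05, or 42.1% in either direction. SUIT2 changed little, with list medians from -0.28 to 0.21, so a call does not mean that BxPC3 differed from each line. For example, 73 of 76 cytoplasmic ribosomal protein genes had a higher response, with medians of 0.88 in BxPC3, 1.02 in Panc327 and 0.05 in SUIT2. FOS rose more in BxPC3, by 3.68 against 2.44 in Panc327 and 0.48 in SUIT2 (difference 2.22, SE 0.18, adjusted p = 1.08e-18). The other 5 genes of the rule with a higher response were RNA45S5 (difference 3.82), LINC00926 (2.79), LSMEM1 (2.32), GPR3, an orphan receptor (2.25), and SMG1P3 (2.16). For RNA45S5, LINC00926 and LSMEM1, Panc327 (7.57, 4.23 and 2.96) lay nearer to BxPC3 than SUIT2 did (1.82, -0.64 and -0.51), whereas GPR3 stood at -0.92 in Panc327 and at 1.62 in SUIT2. In Panc327, RNA45S5 had 157 to 214 counts per DMSO library and 18495 to 23492 per THZ1 library, more than in BxPC3 under either treatment. Multiple alignments made up 51.7% to 54.9% of counting records in the Panc327 THZ1 libraries, against 21.9% to 23.4% in those of BxPC3. The effect of this on the comparison of lines was not tested. CYP1B1 fell by 4.15 in BxPC3, by 1.73 in Panc327 and by 1.36 in SUIT2 (difference -2.60, SE 0.37). The other genes with a lower response were SH2D2A, a T cell adaptor (-3.26), TIGD5 (-2.49), BDKRB2 (-2.46), HTATSF1P2 (-2.43) and ZBTB42 (-2.31). SH2D2A was at -1.97 in BxPC3, -1.77 in Panc327 and 4.36 in SUIT2.

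Several results above differed between lines in the same test. HBEGF stood at -0.11 in Panc327 and 0.10 in SUIT2 (difference 1.71), SGK1 at -0.30 and 0.03 (2.03), CCNT1 at -0.42 and 0.19 (1.23) and AHR at -0.96 and 0.31 (1.32), each with an adjusted p under 0.05 and each lower in both other lines than in BxPC3. EGFR stood at -0.77 in Panc327 and -0.04 in SUIT2 (difference -1.21), PMEPA1 at -0.34 and -0.21 (-1.45) and BLM, the helicase mutated in Bloom syndrome, at -1.28 and 0.02 (-1.22). For IL1A (difference -0.69) and FOSL1 (0.14) the test was not passed (adjusted p = 0.420 and 0.165). Panc327 stood at -3.32 and -2.12 for these genes. Without SUIT2 DMSO replicate 3 the IL1A difference was -2.20 (adjusted p = 0.0482), and FOSL1 stood at -0.08 with library size scaling. Of the homologous recombination and Fanconi list 19 of 35 genes had a lower response in BxPC3 than the mean of the other lines and 2 a higher one. The list's median was -0.68 in BxPC3, -0.70 in Panc327 and -0.07 in SUIT2, so it lay as low in Panc327 as in BxPC3. Of the other immediate early genes 18 of 23 had a higher response and 2 a lower one, with medians of 0.37 in BxPC3, -0.69 in Panc327 and 0.16 in SUIT2.

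**Figure D5:**
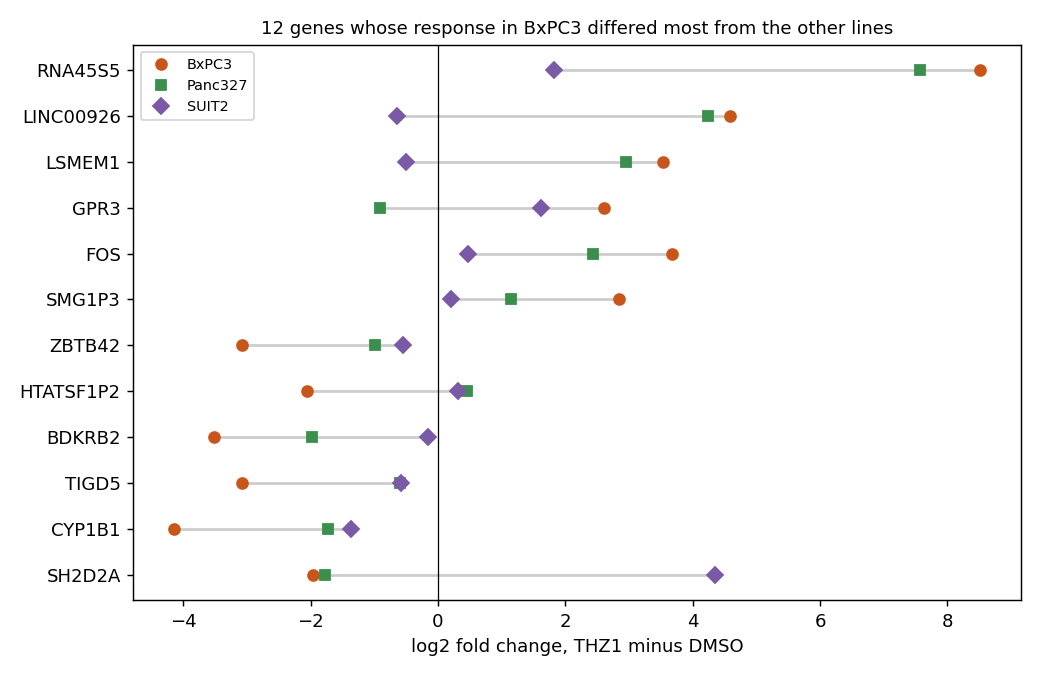
Log2 fold change (THZ1 minus DMSO) in BxPC3 (orange circles), Panc327 (green squares) and SUIT2 (purple diamonds) for the 12 genes whose BxPC3 response differed most from the mean of the other lines. Panc327 lies near BxPC3 for RNA45S5, LINC00926 and SH2D2A, and both other lines lie near 0 for HTATSF1P2.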

How the data were processed

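Poly(A) RNA libraries of BxPC3 cells (3 DMSO, 3 THZ1) and of 12 libraries of Panc327 and SUIT2 were analysed. Per the labels' protocols, extraction used RNeasy Mini columns and library preparation TruSeq RNA v2. Per the submitters' processing notes, bcl2fastq 1.8.4, TopHat2 2.1.0, HTSeq 0.6.1 and build hg38 were used. Annotation, strand and counting settings: not given in the sources used here. The authors deposited whole-number read counts per gene symbol, not normalized. The 5 summary rows were left out of library sizes. Gene counts per library were 5626146 to 8631273 over all lines.

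Genes passing filterByExpr were scaled by TMM and fitted with edgeR 4.0.16 (R 4.3.3) quasi-likelihood models of 6 group means over 18 libraries. Contrasts were THZ1 minus DMSO in BxPC3, and this response minus the mean response of the other lines, with Benjamini-Hochberg adjustment at 0.05. CPM are counts scaled by TMM library sizes to a common total. Symbols were matched to GENCODE 29 on GRCh38 for 23899 names and to older symbols for 692. The model was tested on simulated data: for THZ1 against DMSO over 14011 genes, 83.6% of 67 2-fold changes were recovered, with 9 false calls. The simulated spread was wider than that estimated from the data (common dispersion 0.0012), and few genes were changed. So these rates need not hold for the BxPC3 libraries, where most genes were called.

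The text names the 12 largest rises and falls without overlap and with at least 10 CPM, the 8 largest gains and losses of CPM, at most 4 members of each list in either direction, the 6 largest differences of response per direction, and a fixed set of genes, some of which are not reported here. BLM, BRCA1, CPSF7, GADD45B, GINS2, POLA1, POLA2, SGK1, TAF5 and TP63 were named after their values were seen. Members and lists were chosen with earlier results of these data known. Alternatives were RLE scaling, library size only, no filter, DESeq2 1.42.0, limma 3.58.1 with voom, BxPC3 libraries only, a replicate block and leaving out each library.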

Additional observations from a re-analysis of the deposited data

Results flagged for a closer look

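The BxPC3 response to THZ1 differed from the mean response of Panc327 and SUIT2 for many genes in a test of the difference itself, with 3521 genes higher and 2372 lower (edgeR quasi-likelihood, adjusted p under 0.05). On the log2 scale this difference was 3.82 for RNA45S5, 2.79 for LINC00926, 2.32 for LSMEM1, 2.25 for GPR3, 2.22 for FOS and 2.16 for SMG1P3. It was 2.03 for SGK1, 1.71 for HBEGF, 1.32 for AHR and 1.23 for CCNT1. It was negative for SH2D2A (-3.26), CYP1B1 (-2.60), TIGD5 (-2.49), BDKRB2 (-2.46), HTATSF1P2 (-2.43), ZBTB42 (-2.31), PMEPA1 (-1.45), BLM (-1.22) and EGFR (-1.21). A call does not mean that BxPC3 differed from each line, as the mean includes SUIT2 with its small changes. TIGD5 and SH2D2A overlap other genes on the opposite strand. No search for outlying libraries was made, since each group has 3.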

How the results depend on the processing

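Scaling by library size alone gave 2601 genes higher in BxPC3 and, for the difference from the other lines, 1579 higher and 4210 lower. Asking for at least 2-fold as well left 803 higher and 2109 lower in BxPC3 and 260 higher and 545 lower for the difference. Leaving out each library in turn gave 4710 to 4772 higher and 4502 to 4668 lower in BxPC3, and 3293 to 3561 higher and 2099 to 2349 lower for the difference. Under library size scaling the log2 fold change turned for ATF4 (-0.0033), CDK13 (-0.18), MNAT1 (-0.20), GINS2 (-0.095), POLA1 (-0.019) and JUN (-0.35), and the difference of responses turned for FOSL1 (-0.081). JUN stood at -0.0064 in a fit of the BxPC3 libraries alone. BCL2L1, called lower with library size scaling (-0.40), stood at 0.0329 with RLE factors and 0.0328 with DESeq2, and between -0.0803 (without DMSO replicate 2) and 0.0340 (without DMSO replicate 1) when a library was left out. The cause was not tested. The replicate block gave 4890 genes higher and 4746 lower in BxPC3, and 3474 and 2328 for the difference; of the genes named it ended the call of MNAT1. Deviations of same-numbered BxPC3 libraries correlated at 0.026, -0.0042 and -0.027 over 9598 genes. Those of differently numbered BxPC3 libraries correlated at -0.049 to 0.054, so no pairing by number was seen. With so few libraries per group this check cannot exclude a shared culture, which the labels do not settle. Depth limits genes of few counts. Simulated 1.5-fold changes were recovered in 46.3% of cases for THZ1 against DMSO over 14011 genes. The simulated spread was wider than that of the data, so this share does not measure the effect of depth.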

Other observations

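Most tested zinc finger genes fell. Of 442 tested numbered zinc finger genes, most of which encode DNA-binding repressors, 290 fell and 45 rose, with a median log2 fold change of -1.03 against 0 over all genes tested. ZNF526 was at 27.5, 28.8 and 28.9 CPM with DMSO and at 2.85, 5.66 and 4.49 CPM with THZ1 (-2.71, SE 0.15), and ZNF512 went the other way, from 13.1 to 38.7 CPM (1.56). Of 54 BTB and SCAN zinc finger genes 37 fell and 7 rose, with ZBTB4 at -2.22 and ZBTB34 at 2.34. Kelch adaptors, which bring substrates to CUL3 ubiquitin ligases, had 16 of 34 lower, 6 higher and 12 without a call. Among them KLHL11 was at 15.6, 15.2 and 14.0 CPM with DMSO and at 92.3, 85.9 and 89.2 CPM with THZ1 (2.58, SE 0.09), while KLHL26 (-2.80) and KBTBD12 (-2.80) fell. KBTBD12 overlaps MGLL on the opposite strand.

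Of 19 tested clock genes 6 rose (31.6%) and 9 fell (47.4%), against 35.2% and 34.1% of all genes tested. The repressors CRY1 (from 26.1 to 66.6 CPM, 1.35) and CRY2 (0.79) and the bZIP repressor NFIL3 (0.72) rose. The repressors PER3 (-1.25) and BHLHE41 (-1.93), the activator CLOCK (-0.83) and the clock kinase CSNK1D (-1.05) fell. Interferon-stimulated genes had 10 of 30 higher (33.3%) and 12 lower (40%), near the shares of all genes tested. The abundant ISG15 (from 87.5 to 178 CPM, 1.03) and IFITM3 (0.95) rose, whereas the RNA sensor DDX58 (RIG-I, -1.46), OASL (-1.22) and the interferon signalling factor IRF9 (-1.75) fell. Genes of MHC class I and peptide loading had 12 of 14 higher, with B2M from 1486 to 3128 CPM (1.07) and HLA-C from 128 to 276 CPM (1.11). HLA genes are polymorphic and similar to each other, so the split of their counts is uncertain. Host transcripts of small nucleolar RNAs had 11 of 21 higher and 9 lower, from SNHG12 (-1.87) to SNHG6 (1.05). Among sirtuins, SIRT7 (0.76), SIRT6 (0.65) and SIRT2 (0.59) rose and SIRT5 (-0.64) fell.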
